A study of Mus musculus with 2 samples.

Results

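Quiescent radial glia-like cells of the postnatal mouse cortex were selected by marker detection in 2 single-cell RNA libraries. Barcodes entered with 1000 or more unique molecular identifiers (UMIs, each standing for 1 captured transcript), 500 or more genes, and mitochondrial UMIs of 20% or less. A cell was included when at least 3 of the 6 genes Sfrp1, Veph1, Naaa, Riiad1, Hopx and Ptx3 were detected. It was left out when it held more than 1 UMI of the astrocyte water channel gene Aqp4, of the dividing-cell genes Mki67, Top2a and Cenpf together, or of the oligodendrocyte precursor genes Pdgfra and Cspg4 together. It was also left out when more than 2 of 8 genes of motile cilia were detected. The rule found 471 of 21126 passing cells, 289 of 11024 in the WT library and 182 of 10102 in the Mut library.

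Radial glia are the epithelial-like progenitors that line the ventricle of the developing forebrain and give rise to neurons and then to glia. Around birth some of them turn into ependymal cells or astrocytes, and others leave the cell cycle and persist as neural stem cells in the wall of the lateral ventricle. Secreted Wnt modulators such as Sfrp1, Notch effectors of the Hes family and Id proteins are known parts of the programme that keeps such cells undifferentiated.

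The study compared cortex of wild-type mice (Katnal2 WT) with cortex of mice carrying a mutation of Katnal2 (Katnal2 Mut), both at postnatal day 5. KATNAL2 belongs to the katanin family of microtubule-severing ATPases, and the series' title links its mutation to hydrocephalus, vesicle trafficking, the polarity of ependymal cells and autism spectrum disorder. Tissue was digested with trypsin and collagenase, strained, sorted by flow cytometry and captured in droplets on a 10x Genomics Chromium controller. The sources used here do not give the kind of mutation, the strain, the sort gate, or the sex and number of animals. Each genotype was 1 library whose barcodes carried 1 suffix, although the design text speaks of 3 replicates per sample, so cells could not be traced to animals and no difference between genotypes was tested. All intervals are 95% intervals and cover counting error only.

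The libraries held 93664707 UMIs (WT) and 97891513 UMIs (Mut). Among barcodes of at least 1000 UMIs, 41 barcode sequences occurred in both libraries, and no barcode was a selected cell in both. Both libraries held female and male cells, told apart by Xist and by the Y-linked Ddx3y, Eif2s3y, Kdm5d and Uty, and 51.9% of WT and 72.1% of Mut selected cells with a sex call were female. Selected cells had a median of 4264 UMIs and 2103 genes in WT and of 4469.5 UMIs and 2213 genes in Mut, below the medians of 6446 and 7625.5 UMIs over all passing cells. Astrocytes, dividing astroglia and ependymal cells of the same libraries served for comparison. Astrocytes (2033 WT, 2063 Mut) had at least 3 Aqp4 UMIs and at most 1 of the 6 genes, and were held to the rule's limits on dividing-cell, oligodendrocyte precursor and ciliary genes. Dividing astroglia (974 WT, 880 Mut) had at least 5 UMIs of the dividing-cell genes and at least 3 of the glutamate transporter gene Slc1a3, under the same limits on oligodendrocyte precursor and ciliary genes. Ependymal cells (10 WT, 25 Mut) had at least 5 of the 8 ciliary genes.

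Veph1 and Ptx3, both used to select the cells, share 1 locus. In the GENCODE annotation of GRCm38, Veph1 (chromosome 3, 66053558 to 66296837, minus strand) encloses Ptx3 (chromosome 3, 66219910 to 66225805, plus strand). Exons of the 2 genes share 0 bases; the sources used here do not say whether counting used strand. Both transcripts were detected together in 89 of 289 WT cells (30.8%) and in 60 of 182 Mut cells (33.0%). Veph1 was detected with Naaa, which lies on chromosome 5 (92257659 to 92278170, minus strand), in 83 WT cells (28.7%) and 55 Mut cells (30.2%). All 3 genes were used by the rule, so these shares describe the selection.

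Of the 6 genes and Igfbp5, 5 had a promoter in the RefSeq table (250 bases before to 50 bases after a start, build GRCm38.p6), and Sfrp1 and Riiad1 had none. A half-site of nuclear factor I proteins (TTGGCA), a half-site of RFX proteins (GTTGCC) and the core bound by RBPJ (TGGGAA) were searched on both strands. The promoters of Veph1 (chr3:66296788-66297087, minus strand), Ptx3 (chr3:66219637-66219936, plus strand), Igfbp5 (chr1:72874816-72875115, minus strand) and the upstream start of Hopx (chr5:77115074-77115373, minus strand) are shown because each held a motif, printed in capitals.
Veph1: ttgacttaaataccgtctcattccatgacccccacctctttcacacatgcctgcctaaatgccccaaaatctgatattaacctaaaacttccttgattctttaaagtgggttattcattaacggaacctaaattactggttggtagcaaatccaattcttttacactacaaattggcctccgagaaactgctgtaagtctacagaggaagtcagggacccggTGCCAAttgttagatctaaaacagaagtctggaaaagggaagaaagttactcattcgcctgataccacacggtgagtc
Ptx3: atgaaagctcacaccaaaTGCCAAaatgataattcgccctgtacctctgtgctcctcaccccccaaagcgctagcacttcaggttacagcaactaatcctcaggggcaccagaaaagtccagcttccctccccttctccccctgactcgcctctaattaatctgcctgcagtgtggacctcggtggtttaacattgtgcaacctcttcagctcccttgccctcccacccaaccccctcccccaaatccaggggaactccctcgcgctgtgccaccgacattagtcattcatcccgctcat
Igfbp5: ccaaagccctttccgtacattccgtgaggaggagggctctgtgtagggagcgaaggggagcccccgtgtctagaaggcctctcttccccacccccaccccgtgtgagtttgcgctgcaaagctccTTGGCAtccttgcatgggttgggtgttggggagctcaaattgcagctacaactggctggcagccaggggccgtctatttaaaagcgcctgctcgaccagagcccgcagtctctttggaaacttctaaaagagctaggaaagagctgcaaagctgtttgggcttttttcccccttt
Hopx: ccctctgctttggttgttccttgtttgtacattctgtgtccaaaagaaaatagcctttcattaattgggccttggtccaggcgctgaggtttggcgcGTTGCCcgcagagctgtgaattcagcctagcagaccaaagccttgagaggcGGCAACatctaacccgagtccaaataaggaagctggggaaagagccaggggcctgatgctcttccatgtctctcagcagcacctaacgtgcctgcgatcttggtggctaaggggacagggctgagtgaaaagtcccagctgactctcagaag
The nuclear factor I half-site occurred 1 time each in the promoters of Veph1, Ptx3 and Igfbp5, and in 14.1% of all 32851 promoters of the table. The RFX half-site occurred 2 times in the upstream Hopx promoter and 1 time in the downstream one (chr5:77095218-77095517, minus strand), and in 12.5% of all promoters. The RBPJ core was in none of these 6 promoters and in 25.6% of all. A match of this length describes letters and is not a binding site.

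The 6 genes of the rule were detected in similar shares of the selected cells of both libraries. Sfrp1, a secreted antagonist of Wnt ligands, was detected in 96.2% and 95.1% of WT and Mut cells. Ptx3, a secreted pattern-recognition protein, was detected in 63.3% and 66.5%, and Naaa, a lysosomal amidase of lipid amides, in 60.9% and 64.8%. Veph1, a membrane-associated protein with a pleckstrin homology domain, was detected in 53.3% and 50%, Hopx, a homeodomain-only protein and marker of quiescent stem cells, in 49.5% and 50%, and Riiad1 in 45.3% and 42.3%. These shares describe the selection and are no finding. In astrocytes, which were deeper (medians 8396 and 9561 UMIs), the shares were 1.08% and 1.16% for Veph1, 2.41% and 3.102% for Naaa and 35.2% and 37.5% for Sfrp1. With every cell thinned to 1000 UMIs, Sfrp1 was detected in 57.8% and 63.7% of selected cells and in 6.69% and 6.74% of astrocytes.

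Igfbp5, an insulin-like growth factor binding protein, was given as a marker of these cells, and the rule did not use it. Igfbp5 was named with earlier results of these data known, so its level in the selected cells is a description and no separate support. It was detected in 206 of 289 WT cells (71.3%, exact binomial interval 65.7% to 76.4%) and in 125 of 182 Mut cells (68.7%, 61.4% to 75.3%). With cells thinned to 1000 UMIs the shares were 38.1% and 37.4%, against 5.46% and 5.53% of astrocytes. UMIs of all selected cells of a library were summed and scaled to CPM, the usual scale of counts relative to the sum, which gave Igfbp5 594 CPM in WT (553 to 637) and 544 CPM in Mut (497 to 595), with exact Poisson intervals. Astrocytes were at 59.9 and 57.1 CPM, dividing astroglia at 51.97 and 59.8 and ependymal cells at 29.8 and 132. The Igfbp5 levels of the 2 libraries had overlapping intervals in the selected cells, and every comparison group of either library was lower.

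**Figure D1:**
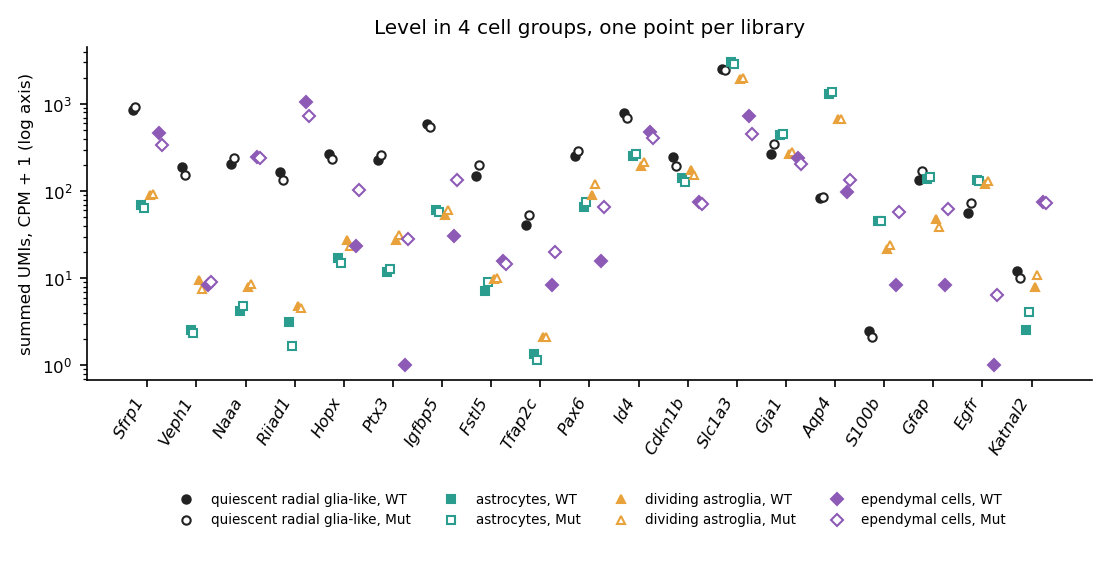
Level of 19 genes (summed UMIs as CPM plus 1, log axis) in 4 groups of cells, with filled symbols for the WT and open symbols for the Mut library. The first 6 genes and Aqp4 were used by the rule. Igfbp5, Fstl5, Tfap2c and Pax6 were not used and lay highest in the quiescent radial glia-like cells in both libraries. Riiad1, Naaa and Katnal2 lay highest in ependymal cells. For Naaa in Mut the levels were close, at 239 CPM in ependymal and 237 CPM in quiescent radial glia-like cells.

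Naaa and Riiad1 were not restricted to the selected cells. Riiad1 was at 167 and 135 CPM in WT and Mut, against 1044 and 718 in ependymal cells and 2.15 and 0.648 in astrocytes. Naaa was at 205 and 237 CPM, against 246 and 239 in ependymal cells. Ptx3 (229 and 261 CPM) and Veph1 (187 and 153 CPM) were low in ependymal cells, with Ptx3 at 0 and 26.9 CPM and Veph1 at 7.46 and 8.07. The ependymal sums rest on few cells.

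Cells with exactly 3 of the 6 genes numbered 141 in WT and 91 in Mut, and cells with exactly 2 that met every other limit numbered 153 and 147. Igfbp5 was at 39.2 and 57.4 CPM in cells with 1 gene, at 195 and 298 with 2, at 536 and 467 with 3, and at 635 and 653 with 4. Pax6, a transcription factor of forebrain radial glia, was at 47.5 and 51.7 CPM with 1 gene, at 110 and 98.7 with 2, and at 229 and 258 with 3. Cells just below the threshold therefore had intermediate levels of Igfbp5 and Pax6. Olig2, a factor of oligodendrocyte precursors and ventral progenitors, was at 97.1 and 27.6 CPM with 3 genes and at 37.1 and 36.5 with 4. On the other limits, 109 WT and 76 Mut cells held 1 Aqp4 UMI, and 66 and 61 cells that met the rest of the rule held 2. The limit on dividing-cell genes was reached by 21 and 15 cells and missed by 1 UMI by 5 and 4. The limit on Pdgfra and Cspg4 was reached by 6 and 6 cells and missed by 1 UMI by 1 and 0. Exactly 2 ciliary genes were detected in 17 and 4 selected cells, and 3 in 2 and 3 cells outside the rule.

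Radial glia genes that the rule did not use were present in the selected cells. Slc1a3 was at 2519 and 2427 CPM in WT and Mut, below astrocytes (3023 and 2914). Fabp7, a brain fatty acid binding protein, was at 17134 and 17555 CPM, against 31158 and 28971 in astrocytes. Pax6 was at 252 CPM in WT (225 to 280.03) and 285 CPM in Mut (251 to 322), against 65 and 73.9 in astrocytes. Sox2, which maintains neural progenitors, was at 828 and 916 CPM, against 611 and 630.3. Hes1 was at 357 and 383 CPM against 182 and 224, whereas Hes5, the other main Notch effector, was lower than in astrocytes, at 1226 and 1242 against 1956 and 1762. Vim and Nes, intermediate filaments of progenitors, were at 761 and 705 CPM (astrocytes 509 and 475) and at 193 and 175 CPM (astrocytes 148 and 158). Of 22 radial glia and neural stem cell genes measured in both groups, 4 were past 2-fold higher than in astrocytes in both libraries and 2 past 2-fold lower. Of 9 genes of outer radial glia 1 was past 2-fold higher and 1 lower, and their median log2 ratio to astrocytes was -0.32 in WT and -0.25 in Mut.

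Against astrocytes of the same library, 299 of 9974 genes (3.0%) were past 2-fold higher in both libraries and 255 (2.56%) past 2-fold lower. Genes entered with at least 100 UMIs over both groups of cells in each library, and 5 CPM was added to both sides of a ratio. The rule excluded cells with Aqp4, so lower levels of genes that accompany Aqp4 follow from the selection, and all of these ratios are descriptions. The highest log2 ratios outside the rule included Fstl5, a secreted follistatin-like protein, at 149 CPM in WT (129 to 171) and 201 CPM in Mut (172 to 233), against 6.11 and 8.12 in astrocytes, with log2 ratios of 3.79 and 3.97. Plagl1, an imprinted zinc finger factor linked to growth arrest, was at 169 and 208 CPM against 17.3 and 16.99. Gfra1, a receptor of glial cell line-derived neurotrophic factor, was at 96.9 and 97.6 CPM against 6.81 and 8.27. These genes had low levels in astrocytes and were detected in the selected cells of both libraries. Cdon, a co-receptor for Sonic hedgehog, was at 80.4 and 72.9 CPM against 6.05 and 7.62, and the long non-coding RNA Meg3 at 225 and 171 against 27.8 and 27. Meg3 was above its level in the selected cells in all other cells (262 CPM in WT and 249 CPM in Mut). It was also above that level in free RNA, taken from barcodes of few UMIs, at 421 CPM in WT and 616 CPM in Mut. The part of free RNA in the Meg3 level was not tested. Also among the 15 highest were Igfbp5, Pter, Pcdh8, Trim2, Rnd3, C1ql3, Ssbp3, Tmem132b and Gm29260. Rnd3, an atypical small GTPase, had log2 ratios of 2.59 and 2.57, and Trim2, a ubiquitin ligase, of 2.83 and 2.89.

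**Figure D2:**
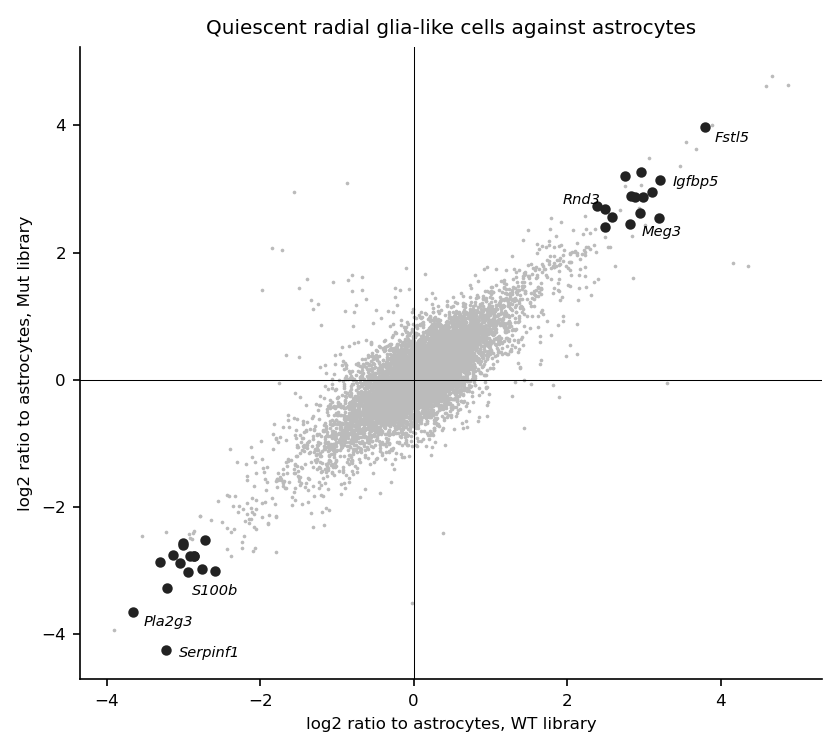
Log2 ratio of quiescent radial glia-like cells to astrocytes (5 CPM added) in the WT library (x axis) and in the Mut library (y axis), 1 grey point per gene and black for the 15 highest and 15 lowest genes outside the rule. Fstl5 stood at 3.79 and 3.97 and Pla2g3 at -3.66 and -3.65.

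Transcription factors that the rule did not use also differed from astrocytes. Tfap2c, a factor of cortical progenitors, was at 39.8 CPM in WT (29.8 to 52.1) and 52.7 CPM in Mut (38.7 to 70.1), against 0.349 and 0.149 in astrocytes. Fezf2, a zinc finger factor of forebrain progenitors and deep-layer neurons, was at 45.8 and 62.8 CPM against 1.45 and 1.79. Zbtb20, a zinc finger repressor, was at 1993 and 1781 CPM against 483 and 533. The Id family, dominant-negative helix-loop-helix proteins, was split within the same cells. Id4 was at 785 and 690.03 CPM against 250.4 and 263 in astrocytes. Id1 was at 113 and 111 CPM against 857 and 789.6, Id2 at 155 and 213 against 988 and 1006, and Id3 at 306 and 411 against 2498 and 2460.3. Id4 was thus past 2-fold higher and Id1, Id2 and Id3 past 2-fold lower than in astrocytes in both libraries.

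Receptors and surface proteins varied in both directions. Notch2 was at 99.9 and 134 CPM against 27.99 and 34.4 in astrocytes, the Wnt receptor gene Fzd8 at 72.8 and 68.4 against 11.5 and 13.3, and the ephrin gene Efnb2 at 105 and 99.9 against 17.3 and 16.1. Gas1, a Hedgehog co-receptor named for growth arrest, was at 531 and 561 CPM against 146 and 161. The planar polarity cadherin gene Celsr1 was at 83.4 and 94.2 CPM against 18.6 and 23.1. Of 17 planar cell polarity genes measured, 3 were past 2-fold higher than in astrocytes and 0 past 2-fold lower. Egfr, the epidermal growth factor receptor gene and a marker of activated stem cells, was at 55.6 and 71.8 CPM against 132 and 128.

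Genes of maturing astrocytes made up the low end. S100b, a calcium binding protein, had 2 and 1 UMIs in all WT and all Mut cells, against 44.98 and 44.8 CPM in astrocytes. Pla2g3, a secreted phospholipase, had 1 and 3 UMIs, against 67.7 and 100.03 CPM. Lcat, which esterifies cholesterol on lipoproteins, was at 5.26 and 6.73 CPM against 89.9 and 108, and the metabotropic glutamate receptor gene Grm5 at 30.04 and 42.6 against 341 and 343. Levels of these genes were low in the selected cells of both libraries. Hbegf, a ligand of the epidermal growth factor receptor, was at 12.02 and 13.5 CPM against 123 and 121. Also among the 15 lowest were Serpinf1, Fndc5, Id1, Inka2, Chrdl1, Chl1, Grin3a, Id3 and Car2. The proteoglycan genes Ncan (444 and 524 CPM against 1939 and 2135) and Bcan (282 and 447 against 1111 and 1181) were also lower. Of 22 astrocyte genes measured, 8 were past 2-fold lower and 0 past 2-fold higher, and of 23 cholesterol synthesis genes 6 were past 2-fold lower. Gfap, an intermediate filament gene of astrocytes and adult neural stem cells, was at 133 and 169 CPM against 136 and 146.

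Against dividing astroglia, 362 of 9514 genes (3.80%) were past 2-fold higher in both libraries and 576 (6.05%) past 2-fold lower. Against ependymal cells, 332 of 2261 genes (14.7%) were past 2-fold higher and 160 (7.08%) past 2-fold lower. The dividing-cell genes and the ciliary genes defined the groups, so their part in these counts is fixed by the rules. Foxj1, the master factor of motile cilia and a gene of the rule, was at 23.3 and 29.2 CPM in the selected cells, against 879.7 and 697 in ependymal cells and 5.06 and 4.78 in astrocytes. Ccdc153, also of the rule, had 0 UMIs in both libraries, which allows at most 3 UMIs in each sum.

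The summed level of 23 S phase genes was 511 CPM in WT and 385 in Mut, against 415 and 419 in astrocytes and 2380 and 2425 in dividing astroglia. The summed level of 20 genes of the G2 and M phases was 127 and 136 CPM, against 122 and 129 and against 5882 and 6026. Astrocytes were held to the same limit on Mki67, Top2a and Cenpf, so low mitotic genes follow from the selection in both. The summed level of 14 cell cycle inhibitor genes was 1700 and 1619 CPM, against 1231 and 1267 in astrocytes. Cdkn1b, which encodes the inhibitor p27, was at 248 CPM in WT (222 to 276) and 193 CPM in Mut (165 to 224), against 141 and 126 in astrocytes. The cyclin gene Ccnd2 was at 751 and 674 CPM, against 1659.6 and 1857. S phase genes had a ratio of Mut to WT of 0.752 (0.659 to 0.858), while neuroblast markers summed to 208 CPM in WT and 58.3 in Mut; the part of cells with those markers was not tested.

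Katnal2 was detected in 15 WT and 8 Mut cells, with 15 and 8 UMIs. This gave 11.3 CPM in WT (6.31 to 18.6) and 8.98 CPM in Mut (3.88 to 17.7); the ratio was 0.797 (interval 0.293 to 2.002). Ependymal cells were at 74.6 and 72.7 CPM and astrocytes at 1.51 and 3.09. The sources used here do not give the changed part of the gene, so the level does not check the genotype labels, and a difference in Katnal2 was not detectable at this depth.

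The selected cells carried regional factors of several forebrain territories. Emx1 or Emx2, factors of the dorsal cortex (pallium), was detected in 31.1% of WT cells (25.8% to 36.8%) and 36.3% of Mut cells (29.3% to 43.7%). At least 1 of Gsx2, Dlx1, Dlx2, Six3 and Nkx2-1, factors of the ventral forebrain (subpallium), was detected in 26.3% (21.3% to 31.8%) and 20.3% (14.7% to 26.9%). Dlx1 and Dlx2 were also on the list of 9 neuroblast and interneuron markers, of which 12 WT cells and 1 Mut cell held at least 3. The part of neuroblast transcripts in the subpallial shares was not tested. Zic1, Zic4 or Zic5, factors of septal and medial territories, was detected in 34.3% (28.8% to 40.0%) and 31.9% (25.2% to 39.2%). The intervals of the 2 libraries overlapped for each territory. None of these genes was detected in 30.8% and 32.4% of cells. Pallial with subpallial factors were found together in 12 WT and 3 Mut cells, pallial with septal factors in 25 (8.65%) and 25 (13.7%), and subpallial with septal factors in 34 and 11.

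The most variable transcripts among selected cells were concentrated in a few cells. Haemoglobin genes led, and 5 cells held 96.5% of the Hbb-bs UMIs and 97.5% of the Hba-a1 UMIs. For the chemokine genes Cxcl2, Ccl2, Ccl4 and Ccl3, 5 cells held from 93.4% to 100% of the UMIs. Of the genes spread over many cells, Gm42418, Malat1, Fabp7, Cst3, Apoe, Egr1 and Ptn were among those that varied most beyond genes of similar mean. Leiden clustering of the 471 cells gave 6 sub-clusters, described by their leading genes and not named as cell types. The first (134 WT, 94 Mut cells) was led, after haemoglobin, by Hopx, at 467 CPM against 91.4 in the other selected cells, and Igfbp5 and Tfap2c were among its 10 leading genes. The second (62 and 51) had Lix1 (164 against 23.5 CPM), Gpc5, Slc12a2 and Sez6 among its leading genes. The third (28 and 23) was led by chemokines of Mut cells and by Gabbr2, a subunit of the GABA-B receptor (187 against 1.09 CPM). The fourth (37 and 6) was led by Mlf1, 1700094D03Rik, Mns1, Rsph1 and Ntn1. Mns1 and Rsph1 encode proteins of motile axonemes, and Ntn1 is the guidance cue netrin-1. The fifth (18 and 7) had Thrsp (646 against 58.3 CPM), Dctpp1, Actr3b and Ncald among its leading genes. The sixth (10 and 1) was led by the neuronal genes Tubb3, Stmn2, Sp9, Igfbpl1 and Dlx6os1. Sub-cluster sizes were not compared between genotypes, since leading genes such as Slc12a2 differed between the libraries.

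Markers of other cell types differed between the libraries. Of 9 neuroblast and interneuron markers, all 9 had UMIs in both libraries, and 12 WT cells against 1 Mut cell held at least 3. Of 6 microglial markers 5 had UMIs, summed to 23.3 CPM in WT and 178 in Mut, with the defining marker Tmem119 at 0 in both. Of 4 macrophage markers 1 had UMIs in WT and 4 in Mut, with 2 and 93 UMIs. Astrocyte markers other than Aqp4 stood higher: 8 of 9 had UMIs, with Agt at 0, summed to 2365 CPM in WT and 2986 in Mut. Mural markers summed to 117 and 183 CPM, with Acta2 at 0 in both libraries and Kcnj8 at 0 in Mut. The oligodendrocyte markers Mog and Mag and the fibroblast markers Col1a1, Dcn and Lum were at 0 in both. In all, 15 WT and 5 Mut cells carried at least 3 markers of microglia, macrophages, endothelial cells, neuroblasts or excitatory neurons, or at least 20 haemoglobin UMIs, and are called mixed-marker cells here. No doublets were removed in the values given; Scrublet scores would remove 14 WT and 8 Mut cells.

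Under the limit of 1 Aqp4 UMI, the selected cells made up a smaller share of the Mut library, and without that limit the shares were close. Selected cells were 2.62% of passing cells in WT (2.33% to 2.94%) and 1.80% in Mut (1.55% to 2.08%), and the ratio of Mut to WT was 0.687 (0.568 to 0.830). Per 100 astrocytes there were 14.2 selected cells in WT and 8.82 in Mut. Astrocytes needed at least 3 Aqp4 UMIs and selected cells at most 1, and passing cells were deeper in Mut (medians 7625.5 against 6446 UMIs). The part of depth in the numbers per astrocyte was not tested. Among female cells the shares were 2.85% and 2.12%, with a ratio of 0.742 (0.564 to 0.975). Among male cells they were 2.37% and 1.56%, with a ratio of 0.658 (0.449 to 0.948). The Mut share was thus lower in both sexes. With at least 4 of the 6 genes the ratio was 0.671, with no Aqp4 UMI 0.643, and without mixed-marker cells 0.705 (0.580 to 0.855). With every cell thinned to 1000 UMIs, 72 WT and 53 Mut cells met the rule, and the ratio of 0.803 had an interval of 0.553 to 1.16 that included 1. Choroid plexus markers summed to 5.66 CPM over all passing WT cells and to 831 CPM over all passing Mut cells. The limit on Aqp4 left out 275 WT and 313 Mut cells that met the rest of the rule. With at most 2 Aqp4 UMIs the ratio was 0.747 (0.632 to 0.882). With no limit on Aqp4 the shares were 5.12% (4.71% to 5.54%) in WT and 4.90% (4.49% to 5.34%) in Mut, and the ratio of 0.958 had an interval of 0.847 to 1.08 that included 1. A lower share in Mut was thus measured for cells with little or no Aqp4. The part of dissection in the share was not tested, and with 1 library per genotype, animal, dissection and genotype cannot be told apart.

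**Figure D3:**
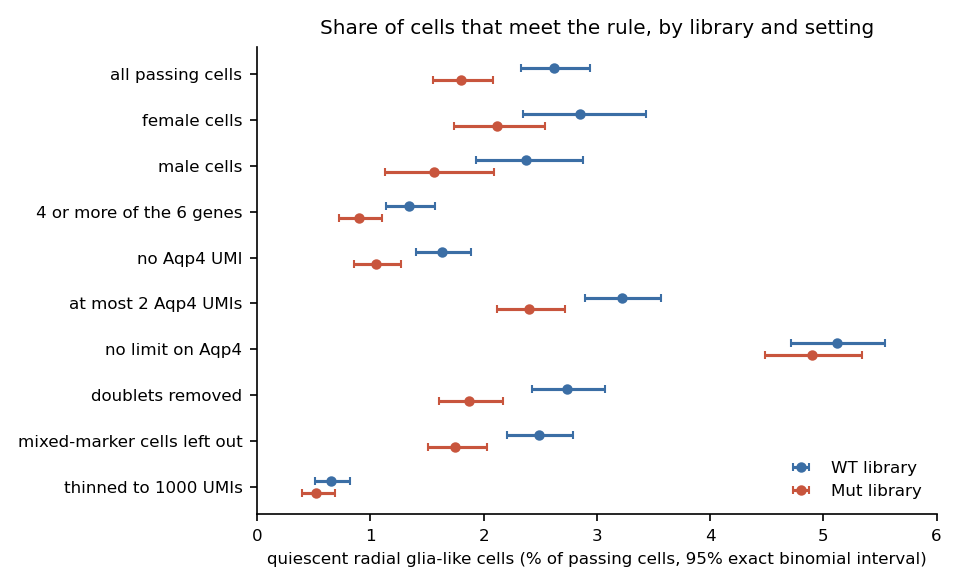
Share of passing cells that met the rule (x axis, %), in the WT library (blue) and the Mut library (red), with exact 95% binomial intervals. The Mut share lay below the WT share in each of the 10 settings drawn, and the intervals of the libraries overlapped for female cells, male cells, cells thinned to 1000 UMIs and cells chosen with no limit on Aqp4, where the shares were 5.12% and 4.90%.

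Expression in the selected cells was then compared between libraries. Of 3994 genes with at least 100 UMIs over both, 53 (1.33%) were past 1.5-fold higher in Mut and 43 (1.08%) past 1.5-fold lower, and the median log2 ratio of all tested genes was 0.02. With TMM scaling the counts were 38 higher and 57 lower, and the share of all tested genes with a higher value moved from 53.3% to 45.4%. In female and in male cells taken apart, 14 of the 53 higher and 14 of the 43 lower genes were past 1.5-fold in the same direction in both. The pooled cells in which these genes were called include the same female and male cells, so the counts are no separate support. The same count over all 3994 genes was not made. In astrocytes of the same libraries, 3 of the 53 and 7 of the 43 were past 1.5-fold in the same direction, and of all 3994 genes 11 (0.275%) were past 1.5-fold higher there and 8 (0.200%) lower. Of the 53, 47 had a higher value in Mut astrocytes as well, with a median log2 ratio of 0.11 against 0.03 over all tested genes. Of the 43, 31 had a lower value, with a median of -0.06. Over all 3994 tested genes, 2407 (60.3%) had a higher value in Mut astrocytes and 1587 (39.7%) a lower one. With no limit on Aqp4, where 8018 genes could be tested, 75 were past 1.5-fold higher and 39 lower.

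Several of the lowest genes had a like ratio in astrocytes. Gm42418, an RNA that overlaps ribosomal repeats, was at 26605 CPM in WT (26328 to 26883) and 9215 CPM in Mut (9017 to 9416). Its log2 ratio was -1.53 in the selected cells and -1.57 in astrocytes. AY036118, another transcript of ribosomal repeats, had log2 ratios of -1.02 and -0.93, and Lars2, the mitochondrial leucyl-tRNA synthetase gene, of -1.25 and -1.13. These differences were thus present in both groups of cells. The ribosomal protein gene Rpl29 was at 427 CPM in WT (392 to 463) and 169 CPM in Mut (143 to 199), with log2 ratios of -1.31 and -1.33; the ratio was -0.84 among female and -3.22 among male selected cells. The linker histone gene Hist1h1e (361 and 151 CPM) had ratios of -1.23 and -0.81. Tomm22, a receptor of the mitochondrial import channel, was at 128 and 68.4 CPM with ratios of -0.86 and -1.05. On the higher side, Atp5mpl, a small subunit of ATP synthase, was at 156 CPM in WT (136 to 179) and 272 CPM in Mut (238 to 308), with log2 ratios of 0.78 and 0.64. Atp5k, another small subunit, had ratios of 0.82 and 0.41.

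Other genes differed between the selected cells of the libraries, and all of those described here but Ccdc190 had ratios near 0 in astrocytes. The difference between the groups was not tested. Serpine2, a secreted inhibitor of thrombin and plasminogen activators, was at 51.1 CPM in WT (39.7 to 64.7) and 118 CPM in Mut (96.4 to 143), a log2 ratio of 1.13 against 0.05 in astrocytes. Its ratio was 1.21 among female and 1.15 among male cells, and it was found in 37 WT and 44 Mut cells. Free RNA, taken from barcodes of 10 to 100 UMIs, held Serpine2 at 290.1 and 352 CPM in WT and Mut, above its level in the selected cells. Astrocytes held Serpine2 at 645 and 668 CPM, also above the selected cells, and it was among the 10 leading genes of the third sub-cluster. The part of astrocyte transcripts in its ratio was not tested. Carnmt1, a methyltransferase that makes anserine from carnosine, was at 38.3 and 76.3 CPM, with 0.91 against -0.02. Serpine2 and Carnmt1 were thus higher in Mut in both sexes. Dync2h1, the motor of retrograde transport in cilia, was at 34.5 CPM in WT (25.3 to 46.1) and 61.7 CPM in Mut (46.5 to 80.3), with 0.75 against 0.03 and with 0.89 among female and 0.97 among male cells. Slc12a2, a sodium-potassium-chloride cotransporter that takes part in cerebrospinal fluid secretion, was at 109.6 CPM in WT (92.6 to 129) and 196 CPM in Mut (168 to 228), with 0.81 against 0.06. Its ratio was 0.09 among female and 1.61 among male cells. Ccdc190 was at 36.8 and 66.2 CPM, with 0.77 against 0.37 in astrocytes. Its ratio was 1.01 among female and 0.26 among male cells. Free RNA held Carnmt1 at 58.01 and 54.2 CPM, Dync2h1 at 15.6 and 21.1 and Slc12a2 at 37.8 and 46.02, and its part in these ratios was not tested. With no limit on Aqp4 the log2 ratio was 0.24 for Serpine2, 0.19 for Carnmt1, 0.17 for Dync2h1, 0.31 for Slc12a2 and 0.26 for Ccdc190, each closer to 0.

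Olig2, a factor of progenitors, was among the 15 lowest. Olig2 was at 65.3 CPM in WT (52.3 to 80.6) and 26.9 CPM in Mut (17.3 to 40.1), a log2 ratio of -1.14 against -0.02 in astrocytes, with -0.35 among female and -1.91 among male cells. Without mixed-marker cells its ratio was -1.24. Cells with exactly 3 of the 6 genes were at 97.1 CPM in WT and 27.6 in Mut and cells with 4 at 37.1 and 36.5, and with at least 4 genes the log2 ratio was -0.29. It was -0.03 with no limit on Aqp4 and 1.18 after thinning, where few UMIs were left. Free RNA held Olig2 at 142 and 152 CPM, above its level in the selected cells. Oligodendrocyte precursor markers summed to 164 CPM in WT and 99.9 in Mut, and their part in the Olig2 ratio was not tested. Of 8 measured genes of activated progenitors 3 had a higher value in Mut. Their median was -0.30, with 0.06 in female and -0.13 in male cells, and it was 0.03 without mixed-marker cells. Sox4 and Sox11, expressed from committed progenitors to young neurons, were at 494 and 334 CPM and at 302 and 196 CPM, and without mixed-marker cells the ratio of Sox11 was 0.09. Egfr, of the same list, was at 55.6 and 71.8 CPM (ratio interval 0.90999 to 1.83).

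Also among the 15 lowest were Basp1, Smim13, Psmg2, Rlf, Mcts1, Nsg1 and Polr2m. Basp1, a growth cone protein of neurons, was at 134 and 50.5 CPM, and its log2 ratio of -1.32 came to -0.73 without mixed-marker cells. Smim13 had -1.01, with -0.58 among female and -1.42 among male cells, and Polr2m had -0.83, with -0.83 and -0.72.

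Several of the highest ratios rested on single cells. The chemokine genes Ccl4, Ccl2, Cxcl2 and Ccl3, typical of microglia and macrophages, had log2 ratios of 4.36, 4.19, 4.17 and 3.96. A single Mut cell held 85.9% of the Mut UMIs of Ccl4, 91.1% of those of Ccl2, 98% of those of Cxcl2 and 79.5% of those of Ccl3. Without mixed-marker cells the ratios were 0.40, 1.24, 0.15 and 0.55. The nuclear receptor gene Nr4a2 came from 1.11 to 0.26, the cathepsin gene Ctsb from 0.95 to 0.45, the inhibitor gene of NF-kappa-B Nfkbia from 0.77 to 0.13 and the granulin gene Grn from 0.75 to 0.27.

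**Figure D4:**
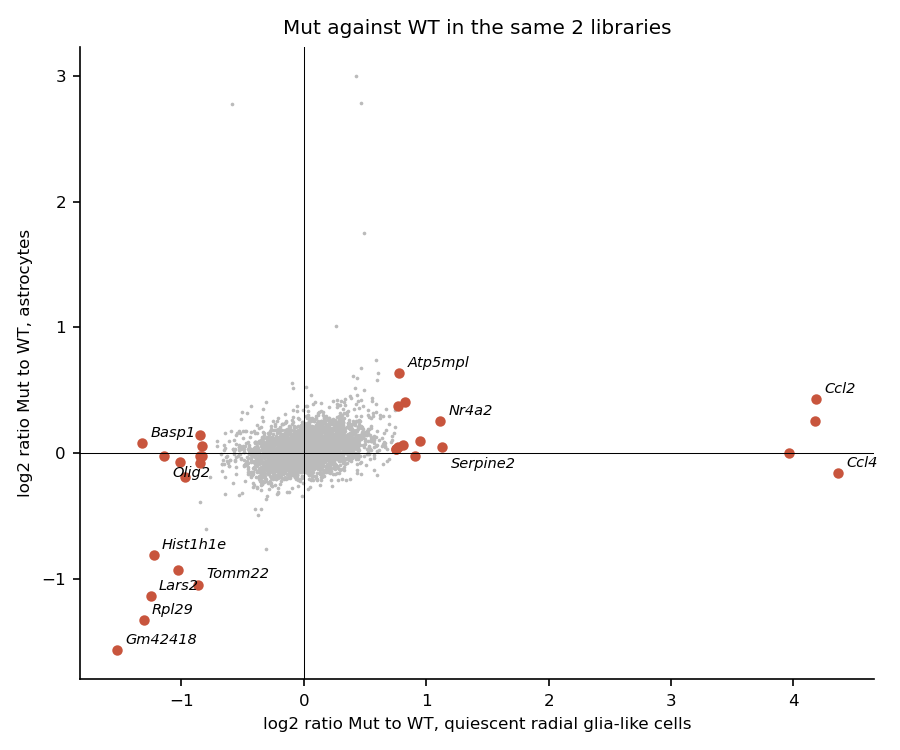
Log2 ratio of Mut to WT (5 CPM added) in quiescent radial glia-like cells (x axis) and in astrocytes of the same 2 libraries (y axis), 1 grey point per tested gene and red for the 15 highest and 15 lowest. Gm42418 (-1.53 and -1.57) and Rpl29 (-1.31 and -1.33) were low on both axes, while Serpine2 (1.13 and 0.05) and Olig2 (-1.14 and -0.02) were near 0 in astrocytes.

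Gene lists were described by counts and medians beside the median of 0.02 over all tested genes, of which 2127 of 3994 were higher in Mut. With TMM scaling 1815 of 3994 were higher and the median was -0.02, and the astrocyte, cholesterol synthesis and water and ion transport lists kept 19, 16 and 11 genes with a higher value. All 19 measured astrocyte genes had a higher value in Mut. The median was 0.32, with 0.29 in female and 0.47 in male cells, and the same genes had a median of 0.07 in astrocytes. Htra1, a secreted protease, was at 128 and 188 CPM (ratio interval 1.19 to 1.84), and Mfge8, a bridging protein of phagocytosis, at 759 and 1042 (1.26 to 1.504). The gap junction gene Gja1 was at 268 CPM in WT (241 to 297) and 349 CPM in Mut (311 to 389.96), whereas Aqp4, capped by the rule, was at 81.9 and 85.3 CPM. None of the 19 was past 1.5-fold. With cells thinned to 1000 UMIs before the rule was applied, where 165 genes could be tested, the median of the list was 0.02. With no limit on Aqp4 it was 0.17, which left cholesterol synthesis at 0.31 and water and ion transport at 0.21.

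Cholesterol synthesis genes had a higher value in Mut for 16 of 17 measured. The median was 0.26, with 0.34 in female and 0.14 in male cells, and 0.16 in astrocytes. Hmgcs1, an early enzyme of the pathway, was at 703 CPM in WT (659 to 749) and 974 CPM in Mut (910.2 to 1041). Acat2 was at 87.1 and 125 CPM and Fdps at 192 and 268, while Sc5d (114 and 108 CPM) was the 1 gene with a lower value. The summed level of the 23 listed genes was 3001 CPM in WT and 3725 CPM in Mut; their ratio was 1.24 (1.185 to 1.30).

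Water and ion transport genes had a higher value in Mut for 11 of 11 measured. The median was 0.27, with 0.22 in female and 0.32 in male cells, and 0.16 in astrocytes. Beside Slc12a2, the sodium pump subunit gene Atp1b1 was at 505 and 626 CPM (ratio interval 1.11 to 1.39) and the bicarbonate cotransporter gene Slc4a4 at 262 and 318 (1.03 to 1.42). Kcnj10, the inward-rectifier potassium channel gene of glia, was at 129.9 and 147 CPM with an interval of 0.895 to 1.43 that included 1.

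Matrix genes had a higher value in Mut for 11 of 14, with a median of 0.12. Bcan, the brevican core protein gene, was at 282 CPM in WT (254 to 312) and 447 CPM in Mut (404 to 493), with log2 ratios of 0.89 among female and 0.42 among male cells and 0.09 in astrocytes. Tnc, the tenascin-C gene of stem cell niches, was at 164 CPM in WT (143 to 188) and 250.2 CPM in Mut (218 to 285), with 0.72 and 0.70 and with 0.13 in astrocytes. Bcan and Tnc were the 2 matrix genes past 1.5-fold. Free RNA held Bcan at 555 and 520.03 CPM and Tnc at 183 and 211.

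Mitochondrially encoded genes had a lower value in Mut for 10 of 11, with a median of -0.29, and of -0.21 in astrocytes, and mt-Atp6 was at 6805 and 4706 CPM. Cytosolic ribosomal protein genes had a lower value for 37 of 47, with a median of -0.13, and of -0.07 in astrocytes. Rpl29 was the 1 ribosomal gene past 1.5-fold, while Rps27 was at 743 and 1001 CPM, in the other direction. Nuclear genes of oxidative phosphorylation had a higher value for 23 of 36, with a median of 0.12, and of 0.13 in astrocytes. Antigen presentation genes had a median of 0.38 over the 4 measured, of 0.84 in female and -0.09 in male cells. H2-K1 was at 64.6 and 89.8 CPM, with 1.57 among female and -0.41 among male cells.

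Lists for trafficking and polarity, processes named in the series' title, had medians from 0.03 to 0.17. Endosome and vesicle trafficking genes had a higher value in Mut for 18 of 32 with a median of 0.04 (16 of 32 with TMM scaling), and 0 were past 1.5-fold in either direction. The retromer subunit gene Vps35 was at 137 and 118 CPM (ratio interval 0.668 to 1.096), and Rab11b, of recycling endosomes, at 151 and 182 (0.973 to 1.49). Snx1, a sorting nexin gene, was at 38.3 and 58.3 CPM (1.02 to 2.29). Clathrin endocytosis genes had a higher value for 13 of 16 (10 with TMM scaling) with a median of 0.07 and 0 past 1.5-fold, and the adaptor subunit gene Ap2m1 was at 155 and 195 CPM (1.03 to 1.55). Planar cell polarity genes had a higher value for 6 of 7 with a median of 0.17, against 0.19 in astrocytes. Celsr1 was at 83.4 and 94.2 CPM (0.841 to 1.51), Fzd3 at 192 and 217 (0.933 to 1.37), and Dchs1, the exception, at 53.3 and 34.8 (0.413 to 1.01). Of apical polarity genes 3 were measured, with Cdc42 at 448 and 458 CPM (0.899 to 1.16). Adherens and tight junction genes had a higher value for 11 of 16 with a median of 0.04, and for 7 of 16 with TMM scaling. The ratio intervals of Vps35, Rab11b, Celsr1, Fzd3, Dchs1 and Cdc42 included 1.

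Cilium and cytoskeleton genes were mixed. Intraflagellar transport and basal body genes had a higher value in Mut for 6 of 13 with a median of -0.02. Dync2h1, described above, was past 1.5-fold higher. Kif3a, a subunit of the anterograde kinesin, was at 155 CPM in WT (135 to 178) and 108 CPM in Mut (87.2 to 132), and Ift20, which links the Golgi to the cilium, at 131 and 97.6 CPM (ratio interval 0.568 to 0.966). The log2 ratio of Kif3a was -0.62 among female and -0.14 among male cells. Katanin and other microtubule genes had a higher value for 2 of 6 with a median of -0.17 that was 0.09 without mixed-marker cells. Map1b, a microtubule-associated protein of growing neurites, was at 177 and 102 CPM, with a log2 ratio of -0.77 that was -0.44 without mixed-marker cells. Spast, the severing ATPase spastin, was at 81.1 and 72.9 CPM (0.651 to 1.23). Genes linked to hydrocephalus had a higher value for 7 of 10 with a median of 0.16, and Kidins220 was at 75.9 and 109 CPM (1.07 to 1.91). Ependymal fate genes had a higher value for 2 of 5 with a median of -0.11, with Rfx3, which drives genes of motile cilia, at 72.8 and 67.3 CPM (0.658 to 1.29).

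**Figure D5:**
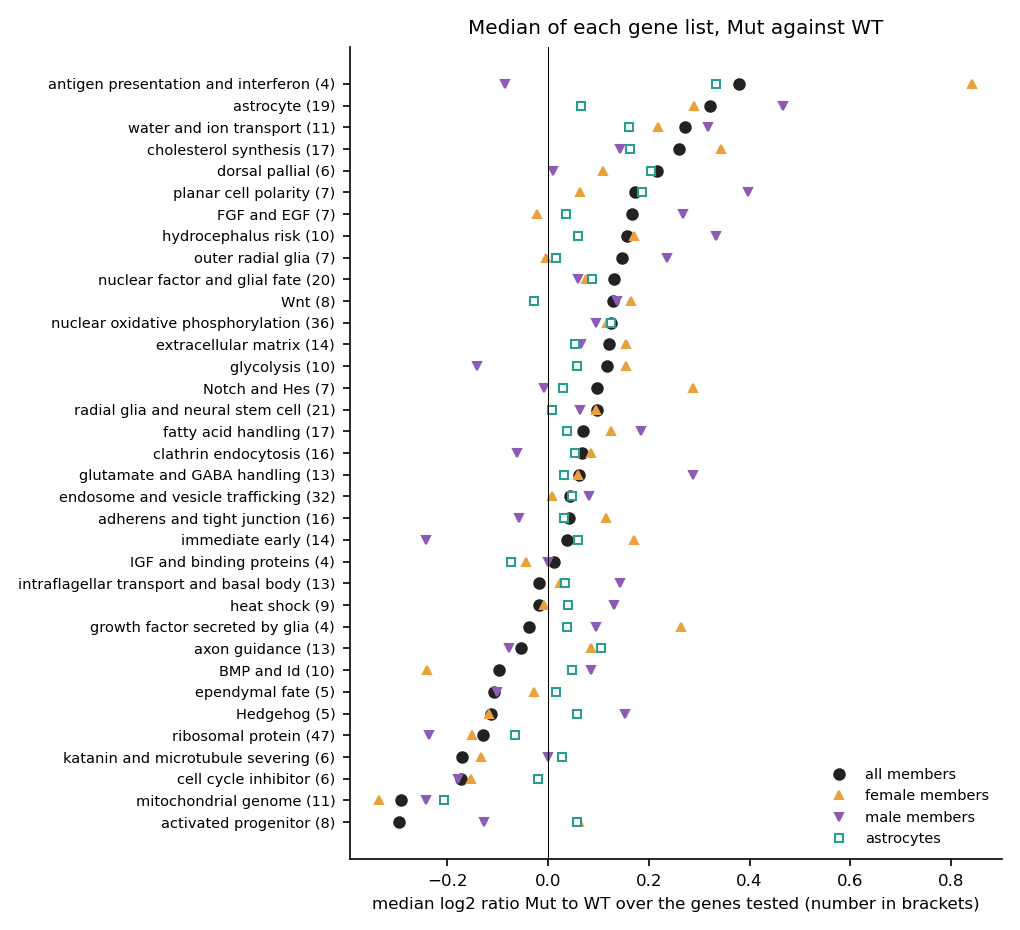
Median log2 ratio of Mut to WT of gene lists with at least 4 tested genes, in all quiescent radial glia-like cells (black), in female (orange) and male (purple) ones, and in astrocytes (open squares). The astrocyte, water and ion transport and cholesterol synthesis lists stood at 0.32, 0.27 and 0.26 and the mitochondrial genome list at -0.29, while the trafficking and intraflagellar transport lists stood at 0.04 and -0.02.

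Stem cell and signalling lists had medians between -0.11 and 0.22. Radial glia and neural stem cell genes had a higher value in Mut for 14 of 21 with a median of 0.10, and Tnc was the 1 past 1.5-fold. Notch and Hes genes had a median of 0.10 over 7, Wnt genes of 0.13 over 8 and Hedgehog genes of -0.11 over 5. FGF and EGF genes had a higher value for 7 of 7 (6 with TMM scaling) with a median of 0.17, of -0.02 in female and 0.27 in male cells. Notch2 was at 99.9 and 134 CPM (ratio interval 1.03 to 1.72), and the Wnt co-receptor gene Lrp6 at 41.3 and 63.95 (1.05 to 2.28). BMP and Id genes had a higher value for 3 of 10 with a median of -0.10. Within that list Id2 was at 155 and 213 CPM (1.13 to 1.69) and Id4 at 785 and 690.03 (0.795 to 0.972), while Smad4, the shared mediator of BMP signals, was at 137 and 93.1 (0.519 to 0.888). Dorsal pallial genes had a higher value for 5 of 6 with a median of 0.22, and of 0.21 in astrocytes. With no limit on Aqp4 the medians of the FGF and EGF, dorsal pallial, planar cell polarity and hydrocephalus lists came to -0.03, -0.02, -0.04 and -0.08, and that of the BMP and Id list to 0.15, each with the other sign.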

How the data were processed

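In all, 2 libraries of dissociated P5 mouse cortex were used, 1 per genotype. The authors deposited raw UMI counts per gene and barcode for every barcode. Per the file headers, Cell Ranger 4 wrote them. Cell Ranger and STAR with GRCm38 are named per the submitters' processing notes. The sources used here give neither the annotation release nor the kit chemistry. The members, gene lists and comparisons were chosen with earlier results of these data known.

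UMIs of the chosen cells were summed per library and scaled to CPM, with chosen cells holding 1331532 (WT) and 891267 (Mut) UMIs. Log2 ratios were taken after adding 5 CPM, over genes with at least 100 UMIs. Called means past 1.5-fold between genotypes, or past 2-fold in both libraries between cell groups. Named genes were the 15 highest and 15 lowest of each comparison (between genotypes without mitochondrial, haemoglobin, Xist, Tsix and Y-linked genes), the genes of the rule, Katnal2, the 20 most variable genes, the 5 leading genes of each sub-cluster, and the highest and lowest members of each list or members whose role is described. A few genes that this rule names are not reported here. Shares have exact Clopper-Pearson intervals, sums Poisson intervals and ratios conditional binomial intervals. A few listed symbols were not found (3 of 867). Sub-clusters used 1000 variable genes, 20 principal components, 15 neighbours and Leiden resolution 0.5 in scanpy 1.11.5. TMM factors came from edgeR 4.0.16. The scripts were tested on simulated data.

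Alternatives were other UMI, mitochondrial and marker limits, Scrublet removal at 0.8% per 1000 barcodes, thinning to 1000 UMIs, each sex, other added CPM, other UMI minimums and other scalings. Leaving out mixed-marker cells, allowing 2 Aqp4 UMIs or any number, and scaling without mitochondrial genes, Gm42418 and AY036118, were chosen after seeing the data. Each genotype had 1 library, so no test was made. Ribosome-repeat transcripts stayed in the totals.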

Additional observations from a re-analysis of the deposited data

Results flagged for a closer look

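Nfkbia, which encodes an inhibitor of NF-kappa-B, had opposite directions in the sexes among quiescent radial glia-like cells. Its log2 ratio of Mut to WT was 0.70 in female cells and -0.62 in male cells, both past 1.5-fold. All selected cells together held 64 Nfkbia UMIs in WT and 76 in Mut, and a single Mut cell held 25% of the latter. The difference between the sexes was not tested. Without mixed-marker cells the ratio over both sexes was 0.13.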

How the results depend on the processing

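The ratio of the Mut to the WT share ran from 0.643 (no Aqp4 UMI) to 0.958 (no limit on Aqp4), and its interval included 1 for the latter and for thinned cells (0.803), so the size of the lower share depends on the limit on Aqp4. Counts of genes moved more. Genes past 1.5-fold higher in Mut numbered 35 with at least 4 of the 6 genes, 4 after thinning, 21 with 20 CPM added, 321 with a minimum of 30 UMIs and 11 with a minimum of 300. Genes past 1.5-fold lower numbered 4 after thinning, 19 with 20 CPM added, 272 with a minimum of 30 UMIs and 9 with 300. Genes past 2-fold higher than in astrocytes numbered 77 after thinning and 165 with a minimum of 300 UMIs, and those past 2-fold lower numbered 148 after thinning. Thinning and higher minimums leave fewer genes to test, and the lower minimum admits genes of large counting error. The ratio of Nfkbia was -0.62 in male cells. TMM scaling and scaling without mitochondrial genes, Gm42418 and AY036118 moved the median by -0.04 each, with 38 and 39 genes past 1.5-fold higher and 57 and 57 lower, so list medians of that size have no fixed sign. Alternative values of named genes were counted in settings with at least 30 UMIs of the gene. Moved means outside the counting interval of the main value, which leaves out the counting error of the alternative value. Of these values, 65 were marked as moved, 1 changed sign and 458 did neither. Thinned values of rarer genes are not in that count. Of the alternative list medians, 83 moved and 647 did not. Sign changes were counted only for list medians past 1.5-fold, which none of these lists had. The lists given above with the other sign in some settings are therefore not set apart in that count. No paired analysis was possible because each genotype had 1 library.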

Other observations

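Transcripts of 2 of the 4 listed mural markers, usually assigned to pericytes, were measured in quiescent radial glia-like cells of both libraries. Among the others, Acta2 had 0 UMIs in both libraries and Kcnj8 had 0 UMIs in Mut. Cells with at least 2 of the 4 markers numbered 22 in WT and 16 in Mut. Cells with at least 3 numbered 0 in each library, which was fixed in Mut, where only 2 markers had UMIs. Pdgfrb, a platelet-derived growth factor receptor gene, was at 69.8 CPM in WT (56.4 to 85.6) and 109.96 CPM in Mut (89.3 to 134), against 23.8 and 29.9 in astrocytes, and was detected in 79 WT and 68 Mut cells. Rgs5, a regulator of G protein signalling, was at 46.6 and 72.9 CPM, against 5.06 and 10.1 in astrocytes, and was detected in 49 WT and 42 Mut cells. Free RNA, from barcodes of 10 to 100 UMIs, held Pdgfrb at 19.4 and 17.2 CPM, below its level in these cells, and Rgs5 at 94.7 and 130.1 CPM, above its level in them. The fullest single cell held 3.23% of the Pdgfrb UMIs in WT and 4.08% in Mut.

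Otx2, a homeobox factor of the forebrain, was also on the list of 5 choroid plexus markers. It was at 37.6 CPM in WT (27.9 to 49.5) and 30.3 CPM in Mut (19.96 to 44.1). Astrocytes were at 3.96 and 1.84 CPM, and Otx2 was detected in 38 WT and 17 Mut cells. The choroid plexus markers summed to 44.3 CPM in WT and 51.6 CPM in Mut selected cells. Of these, Folr1, Kl and Aqp1 were at 0 in WT, and Kl and Aqp1 at 0 in Mut. Otx2 and Slc12a2 were among the leading genes of the second sub-cluster. The part of choroid plexus transcripts in the Otx2 level was not tested. Prom1, which encodes the apical membrane protein prominin, was at 45.1 and 54.98 CPM against 34.6 and 32.1. Thbs4, a thrombospondin gene, had 8 and 5 UMIs. Otx2 was chosen after its values were seen.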
